A study of Mus musculus with 10 samples.

Results

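Maf, Mafk, Mafg, Maff, Bach1, Bach2, Prdm1 and Bcl6 encode DNA-binding proteins that meet in one regulatory circuit of lymphocytes, and the open chromatin at these 8 genes was compared among group 2 innate lymphoid cells (ILC2s) of 5 mouse tissues. A region of the count table was assigned to a gene when its centre lay inside the gene or when its nearest transcription start site (TSS) in curated RefSeq transcripts was that of the gene. By this rule the 8 genes held 92 of the 50039 open chromatin regions (OCRs), of which Bach2 had 30, Maf 22, Bach1 13, Prdm1 12, Bcl6 7, Mafg 3, Maff 3 and Mafk 2. All 92 had counts and were tested.

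ILC2s are tissue-resident lymphocytes without antigen receptors that make type 2 cytokines. They were sorted from the lung, the pancreas, the bone marrow (BM) and the large (LI) and small intestine (SI) of 6-week-old male wild-type C57BL/6 mice with no treatment, in 2 libraries per tissue of 50000 cells each, and the mice of a library were pooled, 10 to 16 at a time. BM cells were taken as lineage-negative (without CD3, B220, CD11b, CD11c and FceRI) ST2+ CD25+, cells of LI, lung and pancreas also as CD45+ CD127+, and SI cells as lineage-negative CD45+ CD127+ KLRG1+ with little Thy1, without the use of ST2, and BM was sorted on a different instrument. Gate, sorter or number of pooled mice therefore cannot be told apart from tissue, except between lung and pancreas, which shared these. Isolation differed as well, since BM was flushed from bone and digestion of lung, pancreas and intestine differed in time and DNase I. It cannot be told apart from tissue, also between lung and pancreas. The p-values measure the spread between pools of mice. ATAC-seq reads come from insertions of the Tn5 transposase into open DNA, so the values below are accessibility and neither RNA nor binding of a factor.

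c-Maf, the product of Maf, is a large Maf protein, a basic leucine zipper activator that drives Il10 in T cells. MafK, MafG and MafF are small Mafs without an activation domain and pair with cap'n'collar (CNC) partners such as Nrf2 or with Bach1 and Bach2 on Maf recognition elements. Bach1 represses haem and antioxidant genes until haem releases it. Bach2 restrains effector programmes in T and B cells, in B cells partly through repression of Prdm1. Prdm1 encodes Blimp-1, the zinc finger repressor of terminal effector and plasma cell fate, and Bcl6 is the repressor of germinal centre B cells and follicular helper T cells, with which Blimp-1 stands in mutual repression.

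The libraries had 10282987 (pancreas replicate 2) to 32797872 counts in regions (lung replicate 2), with a median of 71 to 259 counts per region. Values are counts per 1000000 (CPM) after TMM scaling, and the difference between both libraries of a tissue exceeded counting noise in every tissue, with a chi-square of 12.8 (lung) to 56.0 (LI) per degree of freedom. In these bulk samples, fewer cells of a type and less open chromatin per cell cannot be told apart. All 10 ILC2 markers had promoter OCRs, whose sum was 303 to 479 CPM per library. Promoter sums of other cell types were 4.71 to 10.0 CPM for T cells (2 of 5 genes with a promoter OCR), 1.41 to 8.52 CPM for B cells (1 of 5), 5.72 to 19.6 CPM for plasma cells (1 of 3), 7.39 to 16.5 CPM for myeloid cells (1 of 4) and 2.89 to 9.49 CPM for epithelium (1 of 3). Mast cell and basophil, NK and ILC1, ILC3 and erythroid markers had no promoter OCR, and Cd8a, Ms4a1, Cd79a, Jchain, Lyz2, Csf1r, Mcpt8, Fcer1a, Ncr1, Il23r and Gata1 had no OCR at all. Markers without a promoter OCR could still have open regions. Their gene sums were 34.6 to 67.7 CPM per library for Cd3d (1 region), 1.43 to 6.72 for Cd4 (1 region) and 199 to 509 for Kit (22 regions), among others.

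The sequences below are the central 300 bases of OCRs away from a start site of Bach2, Maf, Bach1, Prdm1 and Bcl6 that were called by the F-test and show which tissues differed, read 5' to 3' on the plus strand of GRCm38.p6 (the RefSeq mouse assembly, the same build as mm10). Capitals mark matches on either strand to 7 motifs, TGAGTCA (the core shared by AP-1, Bach and Maf factors), GCTGANTCA (the Maf recognition element without its first base), TGACNNNGC (antioxidant response element), AGTGAAAG (Blimp-1 core), TTCNNNGAA (STAT and Bcl6), GATAA (GATA) and TGTGGT (Runx). Positions in kilobases (kb) are those of the centre relative to the start of the longest curated RefSeq transcript, or, for Bach2, of its longest transcript, which is predicted. A match is a description of letters and not a bound site.
Bach2 +71.3 kb, chr4:32309523-32309822: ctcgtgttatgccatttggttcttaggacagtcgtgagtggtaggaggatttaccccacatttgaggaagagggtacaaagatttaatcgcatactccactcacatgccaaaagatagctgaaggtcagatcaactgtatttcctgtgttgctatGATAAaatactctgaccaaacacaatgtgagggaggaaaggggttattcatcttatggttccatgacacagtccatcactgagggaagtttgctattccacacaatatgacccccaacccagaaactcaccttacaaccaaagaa
Bach2 +125.3 kb, chr4:32363549-32363848: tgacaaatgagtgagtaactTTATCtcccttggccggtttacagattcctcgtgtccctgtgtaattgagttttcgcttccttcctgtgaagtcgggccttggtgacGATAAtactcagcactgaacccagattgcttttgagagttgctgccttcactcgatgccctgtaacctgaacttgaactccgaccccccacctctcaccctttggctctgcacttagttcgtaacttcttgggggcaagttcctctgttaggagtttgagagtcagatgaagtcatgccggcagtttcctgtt
Bach2 +167.6 kb, chr4:32405819-32406118: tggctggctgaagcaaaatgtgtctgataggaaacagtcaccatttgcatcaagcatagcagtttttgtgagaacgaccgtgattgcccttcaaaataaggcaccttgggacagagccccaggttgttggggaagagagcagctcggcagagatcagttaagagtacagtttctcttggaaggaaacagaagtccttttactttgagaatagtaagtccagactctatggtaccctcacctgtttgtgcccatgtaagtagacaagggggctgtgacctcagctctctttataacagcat
Maf +138.3 kb, chr8:115568486-115568785: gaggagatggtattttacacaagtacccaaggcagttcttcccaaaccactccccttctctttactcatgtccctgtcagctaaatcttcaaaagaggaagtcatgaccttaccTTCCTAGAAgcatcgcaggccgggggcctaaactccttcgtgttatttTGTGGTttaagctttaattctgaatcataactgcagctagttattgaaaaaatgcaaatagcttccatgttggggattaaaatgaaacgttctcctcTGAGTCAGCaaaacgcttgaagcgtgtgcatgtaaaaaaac
Bach1 +26.0 kb, chr16:87724819-87725118: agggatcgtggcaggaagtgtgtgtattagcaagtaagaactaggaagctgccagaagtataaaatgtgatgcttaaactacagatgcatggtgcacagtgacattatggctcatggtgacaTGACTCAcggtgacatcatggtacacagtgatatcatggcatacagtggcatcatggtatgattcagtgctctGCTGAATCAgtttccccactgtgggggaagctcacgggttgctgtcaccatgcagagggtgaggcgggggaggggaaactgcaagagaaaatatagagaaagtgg
Prdm1 -106.4 kb, chr10:44565010-44565309: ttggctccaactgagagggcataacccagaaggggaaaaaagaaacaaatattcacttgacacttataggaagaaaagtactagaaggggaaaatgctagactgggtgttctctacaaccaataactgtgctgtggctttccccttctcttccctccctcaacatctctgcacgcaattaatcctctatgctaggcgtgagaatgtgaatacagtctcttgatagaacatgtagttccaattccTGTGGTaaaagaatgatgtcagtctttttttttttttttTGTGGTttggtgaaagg
Bcl6 -8.5 kb, chr16:23997181-23997480: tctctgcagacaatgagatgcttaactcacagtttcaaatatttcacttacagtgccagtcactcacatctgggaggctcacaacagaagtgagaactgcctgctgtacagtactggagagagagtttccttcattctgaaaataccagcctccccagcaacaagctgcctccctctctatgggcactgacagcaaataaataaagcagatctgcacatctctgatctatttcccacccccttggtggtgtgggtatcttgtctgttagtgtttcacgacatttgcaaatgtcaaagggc

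The 2 of these Bach2 windows in which pancreas did not overlap any other tissue held GATAA, once at +71.3 kb and in 2 copies at +125.3 kb, and none of the other 6 motifs. The Maf window had TGAGTCA and GCTGANTCA in one overlapping run with TTCNNNGAA and TGTGGT beside them, and the Bach1 window had TGAGTCA and GCTGANTCA at separate places. The Prdm1 window held 2 copies of TGTGGT, and the windows of Bach2 at +167.6 kb and of Bcl6 held none of the 7 motifs. The assembly marks 35.3% of the Bach2 +71.3 kb window and 38.7% of the Prdm1 window as repeats. Over all 92 regions, TGAGTCA was in 18 windows (19.6%, against 14.9% of all 50039), GCTGANTCA in 6 (6.52% against 3.26%), TGACNNNGC in 14 (15.2% against 14.5%), AGTGAAAG in 1 (1.09% against 1.82%), TTCNNNGAA in 16 (17.4% against 7.92%), GATAA in 29 (31.5% against 31.3%) and TGTGGT in 23 (25.0% against 29.1%). A Maf element whose free base is G or C also counts as a match to TGAGTCA, so that those counts are not independent. Bach2 had TGAGTCA in 7 of its 30 windows and Maf in 2 of 22. GATAA was in 12 of the 30 Bach2 windows (40.0%) and in 6 of the 22 Maf windows (27.3%).

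Among the 5 tissues, 52 of the 92 regions differed at an adjusted p under 0.05 by edgeR's quasi-likelihood F-test, which is 56.5% against 44.2% of all regions tested. Bach2 supplied 25 of the 52, with 25 of its 30 regions called. Of the other genes, 8 of 13 regions of Bach1, 8 of 22 of Maf, 6 of 12 of Prdm1, 3 of 3 of Mafg, 1 of 3 of Maff, 1 of 7 of Bcl6 and none of 2 of Mafk were called (for Mafk, 1 of 2 at an unadjusted p under 0.05 and 1 of 2 by DESeq2). Without Bach2 the share was 27 of 62 (43.5%), near the background. The ratio of the highest to the lowest tissue mean had a median of 4.39 in Bach2, 2.63 in Bach1, 2.17 in Prdm1, 1.96 in Maf and 1.53 in Bcl6, beside 1.90 over all regions. Within 1.5 kb of a start of the 8 genes, 2 of 12 regions were called, with a median ratio of 1.52. Farther away 50 of 80 were called, with a median ratio of 2.52, and 24 of these lay in Bach2 introns. The same split was not made over all regions, so it is not read as a trait of these genes.

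By tissue, each against the mean of the other 4, BM ILC2s had 15 member regions higher and 19 lower (background 14.9% and 17.0%), LI ILC2s 10 higher and 1 lower (8.80% and 1.27%), lung ILC2s 8 and 8 (6.53% and 7.03%), pancreas ILC2s 21 and 5 (8.27% and 2.11%) and SI ILC2s 11 and 22 (11.8% and 10.2%). When counts were scaled by library size without TMM, BM had 8 higher and 20 lower and lung 11 and 4. Without BM replicate 1 or 2, 9 or 15 regions were called for BM, without LI replicate 1 or 2, 6 or 3 for LI (21 without SI replicate 1), without lung replicate 1 or 2, 5 or 1 for lung, and without pancreas replicate 1 or 2, 14 or 13 for pancreas. Scaling by library size moved the median log2 fold change of all regions by -0.24 between pancreas and SI and by 0.18 for lung against the rest. Tissue-specific OCRs (TS OCRs), higher than in each of the other 4 tissues at an unadjusted p under 0.05, numbered 12, of which 8 were pancreas OCRs (background 1.43%), 3 BM OCRs (4.50%) and 1 a lung OCR (1.30%). Commonly decreased OCRs, lower than in each of the other 4 by the same rule, numbered 20, with 13 in SI (background 3.59%), 6 in BM (6.63%) and 1 in lung (1.72%). With an adjusted p asked in every contrast, 1 TS OCR and 11 commonly decreased OCRs were left, and TS OCRs were 6 without pancreas replicate 1 and 19 without SI replicate 1.

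Bach2, the repressor that restrains effector programmes, had the largest ratio of tissue sums among the 8 genes, 2.41 between pancreas ILC2s, the highest, and SI ILC2s, the lowest. Summed over its 30 regions, accessibility was 795 and 699 CPM in pancreas, 583 and 591 in lung, 508 and 599 in LI, 354 and 424 in BM and 337 and 284 in SI. Both pancreas libraries lay above and both SI libraries below the other 8. The F-test over gene sums, in which 36.2% of 20264 genes passed, gave an adjusted p of 0.000217 for Bach2 by edgeR. Pancreas stood above the mean of the other tissues by 0.75 ± 0.13 on the log2 scale (SE, adjusted p = 0.0012), SI fell by 0.84 ± 0.14 (0.00074) and BM fell by 0.43 ± 0.14 (0.030). In the order pancreas, lung, LI, BM, SI, only LI and BM of the neighbours differed (adjusted p = 0.035). Pancreas and lung (0.28), lung and LI (0.80) and BM and SI (0.19) did not pass.

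**Figure D1:**
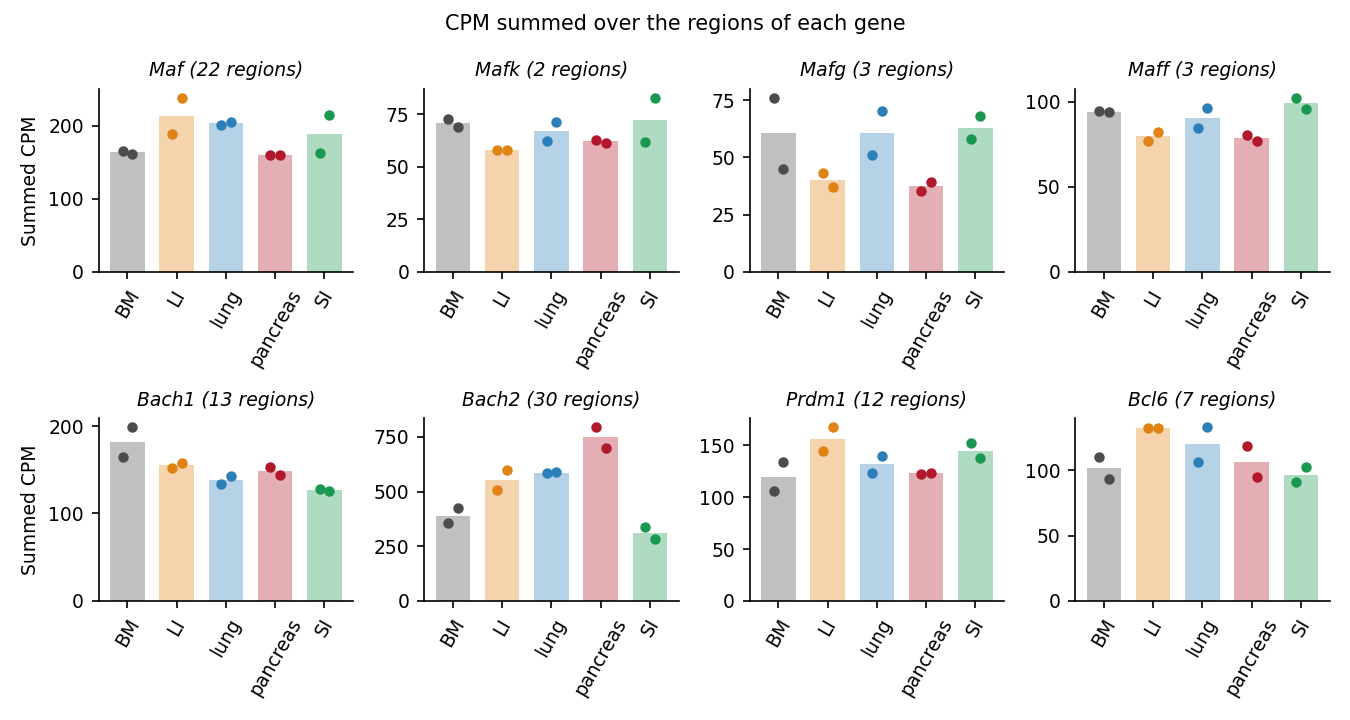
Summed accessibility (CPM, linear axis from 0) of all regions of each of the 8 genes in ILC2s of 5 tissues; bars are means of 2 libraries and points the libraries. Bach2 runs from 284 CPM in SI to 795 CPM in pancreas, and the tissues of the other 7 genes lie closer together.

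Across the Bach2 locus (chr4:32238413-32586109, plus strand) 24 of 27 intronic regions were called by the F-test, and the region at exon 1 was not. That start region, at +0.2 kb, had 34.7 and 28.0 CPM in lung, 36.0 and 23.2 in pancreas, 23.7 and 30.9 in LI, 22.9 and 29.6 in BM and 19.2 and 18.1 in SI (F-test adjusted p = 0.105). Both SI libraries were below the rest there (-0.62 ± 0.20 against the other 4, adjusted p = 0.032). Next to it, the region at +1.3 kb had 45.6 and 27.6 CPM in pancreas and 38.1 and 17.3 in SI, with overlapping tissues (adjusted p = 0.338). Both were named after their values were seen, and 75.3% and 69.0% of their bases were G or C. The start in use here is that of a predicted transcript, and the only curated Bach2 start lies 179.0 kb downstream, where no region fell in the promoter window of 1000 bp upstream to 100 bp downstream.

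**Figure D2:**
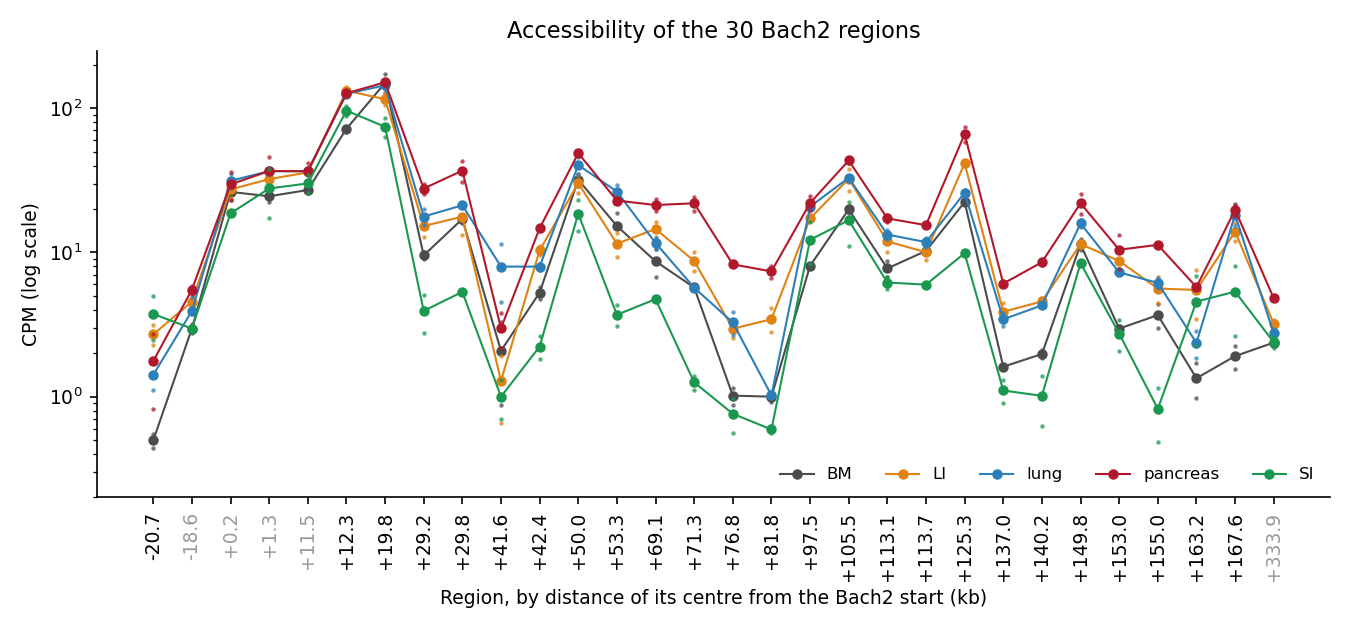
Accessibility of the 30 Bach2 regions (CPM, log axis) in order of distance from the start (kb); lines and large points are tissue means, small points the 2 libraries, and grey labels mark regions not called by the F-test. Pancreas has the highest mean in 25 regions and SI the lowest in 21, against 8486 and 10149 of all 49981 regions tested.

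Pancreas had the highest mean in 25 of the 30 Bach2 regions and SI the lowest in 21, against 8486 and 10149 of all 49981 regions tested. Both held in 18 regions, against 6.39% of all regions. Both pancreas libraries lay above the other 8 libraries in 18 regions (background 5.69%), both SI libraries below in 16 (7.39%) and both BM libraries below in 5 (12.5%). Pancreas was called higher in 19 regions (background 8.27%) and lower in none (2.11%), and SI lower in 20 (10.2%) and higher in 1 (11.8%). BM was lower in 11 (17.0%) and higher in none (14.9%), and LI and lung were higher in 4 each (8.80% and 6.53%). By DESeq2 the counts of 0 were the same, and at an unadjusted p under 0.05 edgeR gave 0 lower in pancreas and 1 higher in BM. Neighbouring regions are not independent, since 5 pairs lay within 1000 bp, the closest 44 bp apart. Without pancreas replicate 1 the count of pancreas-high regions was 12 and that of pancreas TS OCRs 3, and without pancreas replicate 2 the pancreas-high regions were 13. BM-low regions were 2 without BM replicate 1, 4 without BM replicate 2, 7 without lung replicate 1, 7 without pancreas replicate 2 and 7 after removal of trends in width and GC content, and pancreas TS OCRs were 5 under scaling by library size. LI-high regions were 1 without either LI library and 10 without SI replicate 1, and lung-high regions were 1 without lung replicate 2 and 7 without SI replicate 1.

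The 8 pancreas TS OCRs of Bach2 lay at +29.2, +29.8, +71.3, +76.8, +81.8, +125.3, +140.2 and +155.0 kb. At +71.3 kb (chr4:32309402-32309943, intron 1), whose central bases are printed above, accessibility was 24.4 and 19.4 CPM in pancreas, 7.41 and 10.0 in LI, 5.53 and 5.89 in BM, 5.80 and 5.58 in lung and 1.40 and 1.11 in SI. Neither pancreas nor SI overlapped any other tissue. The F-test gave an adjusted p of 1.22e-06, pancreas exceeded the other 4 by 2.34 ± 0.19 (1.53e-06) and SI fell by 2.83 ± 0.27 below them (3.63e-06), so that pancreas and SI were 4.13 ± 0.30 apart on the log2 scale, the largest such difference among the 92 regions. At +125.3 kb (chr4:32363416-32363981, intron 2), a region with a mean of 33.1 CPM against 8.65 at +71.3 kb, pancreas had 74.1 and 58.1 CPM, LI 43.3 and 39.6, lung 24.7 and 27.1, BM 21.7 and 23.0 and SI 10.2 and 9.54. Again both ends stood apart, with 1.59 ± 0.14 for pancreas and -1.85 ± 0.17 for SI (edgeR adjusted p = 2.95e-06 and 3.74e-06), and LI came second, at an adjusted p of 0.066 against pancreas.

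Other Bach2 regions were also highest in pancreas. At +81.8 kb, pancreas had 8.07 and 6.69 CPM, LI 2.79 and 4.08, and BM, lung and SI between 0.557 and 1.08 (F-test adjusted p = 1.80e-05). At +155.0 kb, pancreas had 11.7 and 10.9 CPM and SI 1.16 and 0.488, with BM at 4.36 and 2.99 (4.21e-05). Pancreas lay above and SI below all others at +155.0 kb, though pancreas and lung did not differ there in the direct edgeR contrast (adjusted p = 0.15). At +81.8 kb the 3 lowest tissues were close to each other. At +29.8 kb, pancreas had 43.2 and 30.5 CPM, lung 20.5 and 21.9 and SI 5.25 and 5.40 (1.99e-05).

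Not every Bach2 region followed pancreas and SI. The region with the most counts, at +19.8 kb, had 157 and 145 CPM in pancreas, 128 and 172 in BM, 151 and 136 in lung, 104 and 127 in LI and 63.0 and 85.5 in SI, so that only SI stood apart (-0.91 ± 0.17, adjusted p = 0.0013). At +12.3 kb, BM was lowest, with 70.6 and 73.3 CPM against 88.2 to 141 in the other tissues (-0.73 ± 0.15, adjusted p = 0.0014). SI came next, and SI and BM did not differ in the direct edgeR contrast (adjusted p = 0.091). BM was lowest as well at +167.6 kb (chr4:32405709-32406228, intron 2), with 2.25 and 1.56 CPM against 17.9 and 21.6 in pancreas, 15.2 and 21.3 in lung, 16.0 and 11.9 in LI and 8.04 and 2.65 in SI (-2.74 ± 0.37, adjusted p = 5.64e-05). The lowest SI library came close to BM there. Upstream of the gene, at -20.7 kb, BM was again lowest, with 0.440 and 0.552 CPM (-2.14 ± 0.54, adjusted p = 0.0069), a call lost without either BM library. SI had the highest mean there, with 5.01 and 2.47 CPM, but no neighbours in the order differed in direct edgeR contrasts (adjusted p of 0.106 or more). The single lung TS OCR, at +41.6 kb, had 4.51 and 11.4 CPM in lung and at most 3.77 elsewhere, and its log2 difference of 2.29 became 1.47, not called, without lung replicate 2.

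Compared directly, pancreas was above SI in 20 Bach2 regions and below in none, against 12.0% and 8.45% of all regions. Of the 30 differences 29 were positive, also with each other scaling tried, against 23149 of all 49981 regions tested in the reported fit. The median Bach2 difference was 1.52 on the log2 scale beside -0.06 over all regions. The other 7 genes gave other counts. Pancreas was above SI in 2 of 13 Bach1 regions and below in none, and below SI in 4 of 12 regions of Prdm1, 3 of 22 of Maf, 2 of 3 of Mafg and 1 of 3 of Maff, with none above. DESeq2 gave the same counts of 0, and at an unadjusted p under 0.05 by edgeR the counts stayed 0 but for 1 Maf region above. The medians were -0.31 for Prdm1, -0.33 for Maf, -0.87 for Mafg and -0.35 for Maff, with 0.02 for Bach1 and 0.14 for Bcl6. Relative to the median of all regions, Bach1 lay at 0.07 and Bcl6 at 0.20, values that were also 0.07 and 0.20 with library size alone, and after removal of trends in width and GC content Bcl6 lay at -0.04. Il1rl1, which encodes ST2 and was part of the gate in every tissue but SI, was ordered by tissue as Bach2, at 435 and 390 CPM in pancreas, 328 and 448 in lung, 193 and 241 in LI, 225 and 203 in BM and 72.6 and 87.7 in SI (gene sum, adjusted p = 1.79e-06). Of the 10 ILC2 markers 4 passed (background 36.2% of gene sums), of which Il1rl1, Klrg1 and Areg were highest in pancreas and Il1rl1, Areg and Il7r lowest in SI. Klrg1, which was part of the SI gate, had 177 and 164 CPM in pancreas and 81.4 and 134 in SI (adjusted p = 0.0037). The promoter sum of the 10 markers was 429.9 to 479 CPM in pancreas and 303 to 379 in SI. The part of the gate and of the other ILC2 markers in the Bach2 difference was not tested.

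**Figure D3:**
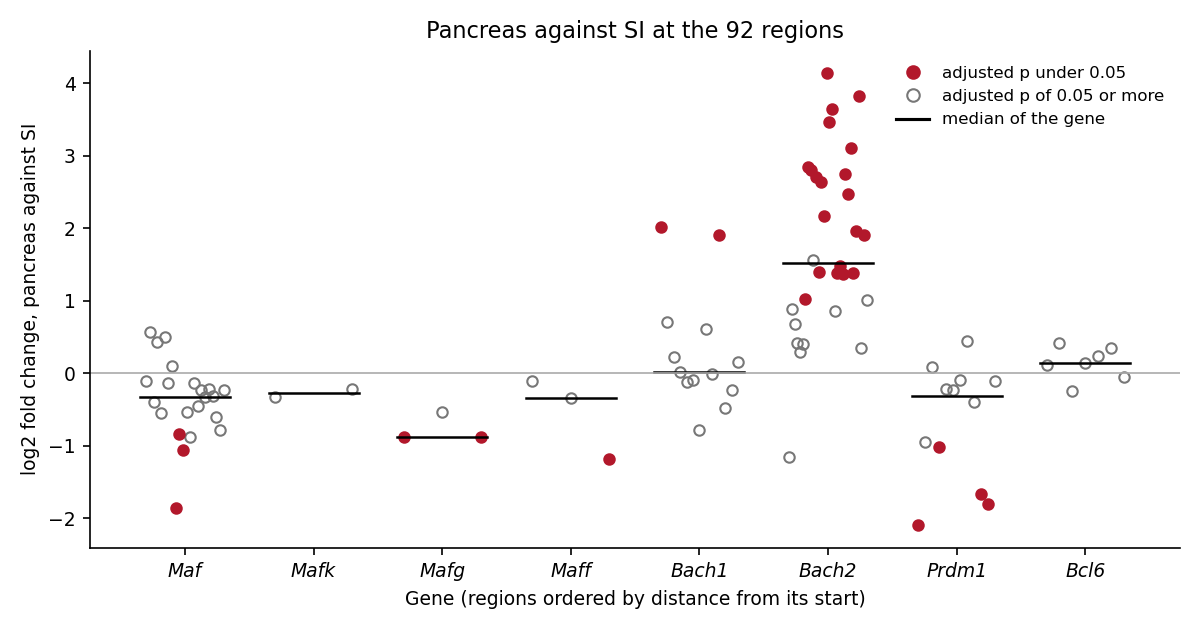
Log2 fold change of pancreas against SI ILC2s at each of the 92 regions by gene; filled red points passed an adjusted p of 0.05 and the line is the median of the gene. Bach2 lies above 0 in 29 of 30 regions (23149 of all 49981 regions tested) with a median of 1.52, and no Prdm1, Maf, Mafg or Maff region passed above 0.

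Bach1, the haem-sensing repressor, leaned to BM ILC2s. Its regions summed to 164 and 199 CPM in BM, 152 and 158 in LI, 153 and 144 in pancreas, 134 and 143 in lung and 128 and 126 in SI, so that both BM libraries were above the rest. The F-test over gene sums did not pass (adjusted p = 0.057), nor did it with library size alone (0.114) or the replicate block (0.060). It passed with DESeq2 size factors (0.049), by DESeq2 (0.0074) and after removal of trends in width and GC content (0.025, and 0.035 with the replicate block). BM against the mean of the others passed in the reported fit (0.36 ± 0.11, adjusted p = 0.023). Of its 13 regions, 9 were called higher in BM (background 14.9%) and none lower (17.0%), with 0 lower also at an unadjusted p by edgeR and by DESeq2. BM TS OCRs (background 4.50%) were 3 of the 13, at -37.4, -17.6 and +27.3 kb. Without BM replicate 1 or 2, 4 or 3 regions were called higher in BM and 4 passed the F-test, and without BM replicate 2 or SI replicate 2 there was 1 BM TS OCR. At +27.3 kb, BM had 7.29 and 8.70 CPM, SI 5.39 and 2.79 and the other libraries 2.47 to 3.92 (1.32 ± 0.26, adjusted p = 0.0014). At -17.6 kb BM had 5.77 and 5.98 CPM and the other 8 libraries 1.49 to 3.45 (1.24 ± 0.26, adjusted p = 0.0022). The region at -37.4 kb was the most open of these, with 35.3 and 36.7 CPM in BM and 17.5 to 26.1 elsewhere (0.63 ± 0.15, adjusted p = 0.0054), and its call was lost without either BM library.

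Regions of Bach1 could also follow SI. At +26.0 kb (chr16:87724693-87725243, intron 4), the window with TGAGTCA and GCTGANTCA, accessibility was 8.36 and 11.0 CPM in pancreas, 7.34 and 10.2 in BM, 8.54 and 8.38 in LI, 4.12 and 2.93 in lung and 2.46 and 2.65 in SI. SI and lung were both low and did not overlap the other 3 tissues (SI -1.47 ± 0.26, adjusted p = 0.00072; F-test 0.000226). At -63.4 kb, SI had 3.08 and 5.16 CPM and the others 7.73 to 17.5 (-1.69 ± 0.27, adjusted p = 0.00035). The start of Bach1 had 54.6 and 67.6 CPM in BM and 31.9 to 59.8 elsewhere, with an F-test adjusted p of 0.115.

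For Prdm1, which encodes Blimp-1, neither the sum nor the start passed, and single regions away from the start did. Summed over 12 regions, LI had 145 and 168 CPM, SI 152 and 138, lung 123 and 140, pancreas 122 and 124 and BM 106 and 133 (adjusted p = 0.176). Its start region ran from 49.2 to 66.9 CPM, both values from BM (adjusted p = 0.746). Called regions lay upstream, inside the gene and downstream. Positions are those from the curated start, and the longest Prdm1 transcript, which is predicted, starts 69.8 kb upstream of it. With predicted transcripts included, Prdm1 had 7 regions instead of 12. At -106.4 kb (chr10:44564875-44565443, between genes), whose bases are given above, the values were 9.15 and 15.6 CPM in LI, 6.98 and 8.60 in SI, 2.82 and 5.71 in lung, 2.30 and 2.76 in BM and 1.65 and 2.05 in pancreas. Both intestinal tissues lay above all other libraries (F-test adjusted p = 0.000112), with LI at 1.82 ± 0.26 (0.00029) and SI at 0.97 ± 0.27 (0.014) over the mean of the other tissues, and pancreas fell by 1.65 ± 0.35 (0.0059). In direct edgeR contrasts of neighbours, LI and SI (adjusted p = 0.24) and SI and lung (0.096) did not differ. A direct contrast of the intestinal and other tissues was not among the tests.

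Inside Prdm1, 2 intronic regions were commonly decreased in BM. At +8.8 kb, BM had 6.90 and 9.16 CPM and the other tissues 11.3 to 20.2 (-0.89 ± 0.21, adjusted p = 0.0044), and at +10.5 kb 12.3 and 14.7 CPM against 17.7 to 23.7 (-0.56 ± 0.17, adjusted p = 0.019). Neither call held without BM replicate 1 (adjusted p = 0.10 and 0.21), and that at +10.5 kb was also lost after removal of trends in width and GC content. Downstream, at +31.1 kb, BM had 5.24 and 4.65 CPM, SI 3.75 and 5.99, LI 2.88 and 2.39, and lung and pancreas 0.862 to 1.83 (F-test adjusted p = 0.000653). At +29.1 kb SI had 11.0 CPM in both libraries, above every other library (1.06 ± 0.25, adjusted p = 0.0049), though SI and LI did not differ directly (edgeR adjusted p = 0.35). At +23.9 kb lung was lowest, with 4.39 and 3.31 CPM (-0.98 ± 0.26, adjusted p = 0.020), a call lost without either lung library.

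Bcl6, the repressor that stands against Blimp-1, had 1 called region of 7. This lay at -8.5 kb (chr16:23997080-23997580), inside the predicted gene Gm31527, and had 6.28 and 8.47 CPM in LI, 3.65 and 5.28 in pancreas, 2.79 and 5.33 in SI, 3.02 and 1.96 in lung and 0.979 and 0.736 in BM. BM lay below and LI above all other libraries (F-test adjusted p = 0.000438, BM -2.31 ± 0.39 with adjusted p = 0.00035, LI 1.57 ± 0.29 with adjusted p = 0.0019). In direct edgeR contrasts, BM and lung differed (adjusted p = 0.022), and LI and pancreas did not (0.41). The other 6 regions lay at the start, within the gene and at -2.5 kb, and the gene sums, from 90.8 CPM (SI) to 133 CPM (lung), did not pass (adjusted p = 0.124). At the Bcl6 start the pancreas libraries were far apart, with 36.5 and 14.3 CPM, and the other tissues had 23.8 to 55.8 CPM (adjusted p = 0.159). BM was called lower at +3.8 kb too, with 19.4 and 18.7 CPM against 21.6 to 29.7 (-0.45 ± 0.16, adjusted p = 0.036), a call lost without any 1 of the BM, LI or lung libraries or pancreas replicate 1.

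**Figure D4:**
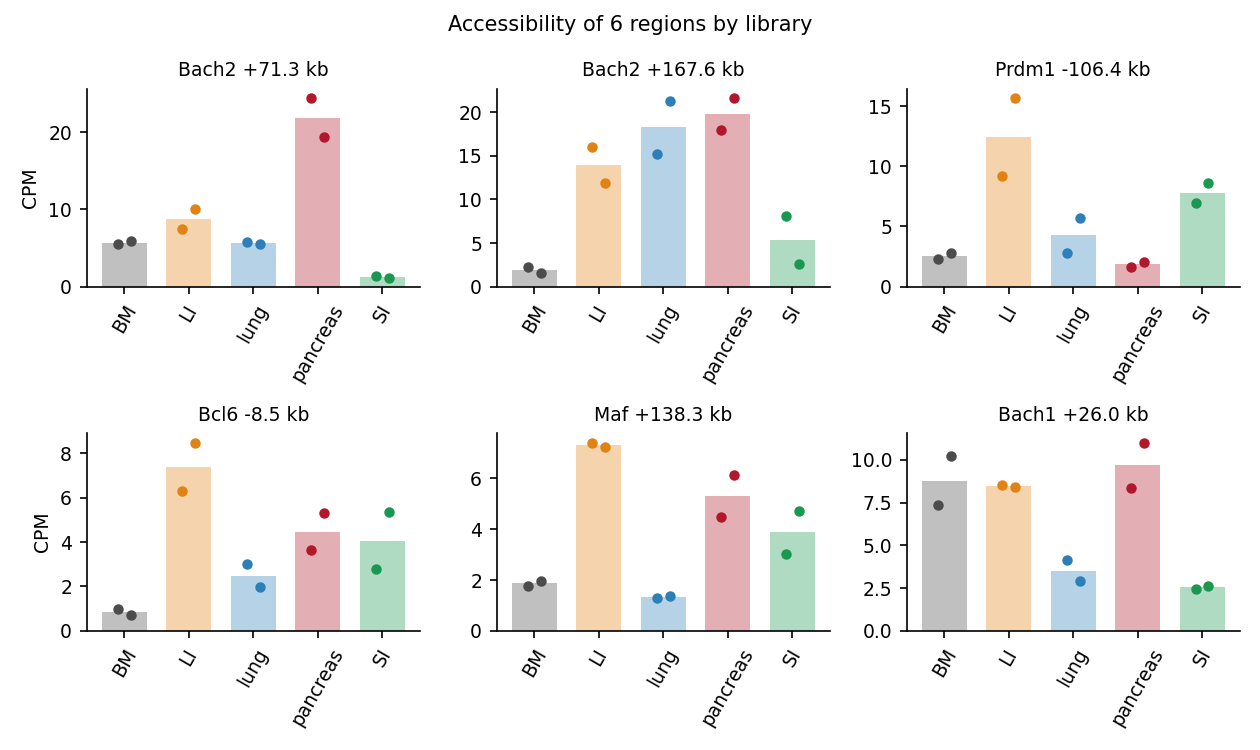
Accessibility (CPM, linear axes) by library at 6 regions away from the start sites: Bach2 +71.3 and +167.6 kb, Prdm1 -106.4 kb, Bcl6 -8.5 kb, Maf +138.3 kb and Bach1 +26.0 kb. The lowest tissue is SI at Bach2 +71.3 kb (1.40 and 1.11 CPM) and BM at Bcl6 -8.5 kb (0.979 and 0.736 CPM), and LI is highest at Prdm1 -106.4 kb (9.15 and 15.6 CPM).

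Maf, the gene of c-Maf, had 20 of its 22 regions downstream, of which 10 lay within the neighbouring gene Wwox. They were assigned to Maf by the nearest curated start alone, and with predicted transcripts included 2 regions stayed with Maf. The sums were 189 and 238 CPM in LI, 201 and 206 in lung, 163 and 214 in SI, 165 and 161 in BM and 160 and 159 in pancreas (adjusted p = 0.125). The promoter region, at -0.7 kb, ran from 29.2 to 47.7 CPM without a tissue standing apart (adjusted p = 0.682). At +138.3 kb (chr8:115568373-115568897, between genes), the window above in which TGAGTCA and GCTGANTCA overlap, accessibility was 7.41 and 7.26 CPM in LI, 4.48 and 6.15 in pancreas, 3.03 and 4.74 in SI, 1.76 and 1.98 in BM and 1.29 and 1.38 in lung. LI was above and lung below all other libraries (F-test adjusted p = 0.000222, LI 1.45 ± 0.25 with adjusted p = 0.0013, lung -1.61 ± 0.31 with adjusted p = 0.0026). In direct edgeR contrasts, LI and pancreas (adjusted p = 0.60) and BM and lung (0.40) did not differ.

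At +306.4 kb both intestinal tissues were high, with 14.7 and 15.6 CPM in LI and 11.3 and 15.9 in SI against 4.74 to 8.30 in the other libraries (F-test adjusted p = 0.000508). LI was called at 0.99 ± 0.20 (adjusted p = 0.0039, and 0.073 without LI replicate 2) and SI at 0.80 ± 0.20 (0.0082). Other Maf regions went other ways. Lung was called higher at +199.8, +516.9 and +528.4 kb and SI at +292.6 and +308.7 kb among others, regions named after their values were seen. Over the 22 regions, SI was higher in 5 (background 11.8%) and LI in 3 (8.80%). Lung was higher in 3 and lower in 3 (6.53% and 7.03%), and BM higher in 2 and lower in 3 (14.9% and 17.0%). The region at +523.1 kb, inside Wwox, had 6.10 and 10.6 CPM in LI and 2.15 and 1.93 in BM (LI 1.15 ± 0.25, adjusted p = 0.0059), and its LI difference was 0.69, not called, without LI replicate 2, and the call was also lost after removal of trends in width and GC content.

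The small Mafs had 2 or 3 regions each, with 38.4 CPM per kb of region for Mafk, 52.5 for Maff and 22.1 for Mafg as the mean over libraries, beside 30.8 for Bach2, 30.2 for Bcl6, 21.4 for Bach1, 19.6 for Prdm1 and 15.3 for Maf. Among them the sum of Mafg alone differed among tissues (F-test adjusted p = 0.021; Mafk and Maff passed too under scaling by library size), with 58.2 and 68.0 CPM in SI, 51.1 and 70.3 in lung, 76.2 and 45.1 in BM, 43.1 and 37.1 in LI and 35.3 and 39.3 in pancreas. Pancreas was 0.76 ± 0.22 below SI on the log2 scale (adjusted p = 0.025), a call lost without pancreas replicate 1 (0.164), pancreas replicate 2 (0.086) or SI replicate 2 (0.086). The F-test of the sum no longer passed without LI replicate 2 (0.062), pancreas replicate 1 (0.077) or pancreas replicate 2 (0.054). Its start region, at +0.3 kb, had 27.0 and 28.7 CPM in pancreas and 29.5 to 64.4 elsewhere (-0.69 ± 0.20, adjusted p = 0.040). The call of that region was lost without either pancreas library, BM replicate 1, LI replicate 1 or lung replicate 2, and after removal of trends in width and GC content. At +5.4 kb, nearer to the start of Sirt7, LI was lowest, with 9.07 and 8.12 CPM (-0.77 ± 0.22, adjusted p = 0.034, lost without any 1 of the LI, lung or pancreas libraries). At +1.3 kb, lung had 7.92 and 16.6 CPM (1.16 ± 0.30, adjusted p = 0.016), and the difference was 0.54, not called, without lung replicate 2.

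Maff, which is induced in stress and inflammation, was called at 1 region, +10.8 kb inside the gene. There SI had 42.0 and 38.1 CPM, above every other library, and pancreas 21.3 and 13.6, below every other library, with BM at 27.1 and 26.7, LI at 23.3 and 24.2 and lung at 27.2 and 32.3 (F-test adjusted p = 0.0046; SI 0.74 ± 0.16, adjusted p = 0.0037; pancreas -0.74 ± 0.19, adjusted p = 0.016). In direct edgeR contrasts at that region, SI and lung (adjusted p = 0.18) and LI and pancreas (0.39) did not differ. The promoter region of Maff, at +1.2 kb, had 84.4 and 83.9 CPM in BM and 57.3 to 70.8 elsewhere. The difference of BM to the rest (0.37 ± 0.13, adjusted p = 0.035) was lost under scaling by library size, after removal of trends in width and GC content and without either library of BM, LI or lung. Mafk, at its start, had 71.5 and 67.2 CPM in BM, 45.2 and 42.0 in LI and 49.2 to 73.4 in the other tissues (adjusted p = 0.051), and its second region, at +3.6 kb, ran from 19.5 to 27.3 CPM (adjusted p = 0.84).

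The genes around these factors were counted by their sums (36.2% of all gene sums passed). Of 6 CNC partners and their sensor, 1 passed, Nfe2l2, which encodes Nrf2. It had 190 and 186 CPM in pancreas, 173 and 197 in LI and 124 and 128 in BM (F-test adjusted p = 0.012), so that pancreas and LI overlapped. Of 10 haem and antioxidant genes under Bach1 and Nrf2, 5 passed, with 2 of the 5 highest in SI, 2 in BM and 1 in pancreas. Among these, Slc7a11, the cystine transporter, had 11.3 and 13.6 CPM in BM and 3.23 and 2.15 in lung (adjusted p = 0.000335), and Txnrd1 (0.835) was the farthest from passing.

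Of 9 genes under Blimp-1 or Bcl6, 5 passed, beside the same 36.2% of all gene sums. Il10, a cytokine gene that c-Maf and Blimp-1 activate in T cells, had 120 and 81.2 CPM in SI, 49.4 and 59.4 in lung, 53.8 and 47.7 in LI, 27.6 and 41.8 in pancreas and 13.5 and 11.9 in BM (adjusted p = 2.01e-06). SI lay above and BM below all other libraries. Irf4, a factor that cooperates with Blimp-1 in plasma cells, had 51.7 and 53.4 CPM in BM and 109 to 183 elsewhere (adjusted p = 1.49e-05), and Myc, which Blimp-1 represses, did not pass (0.802). Pax5 had the highest mean in BM, with 14.0 and 19.8 CPM, beside 14.9 and 11.3 in SI and 5.96 to 7.91 in the other tissues. It is counted among the B cell markers too.

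Markers of other cells moved with SI and pancreas in part. Called (36.2% of all gene sums passed) were 2 of 5 T cell, 2 of 5 B cell, 1 of 3 plasma cell and 1 of 4 myeloid markers. So were 2 of 4 mast cell and basophil and 2 of 3 epithelial markers, and no NK and ILC1, ILC3 or erythroid marker. Called gene sums that were highest in SI were those of Cd79b, Cd68, Cd3e, Tnfrsf17 and Epcam. Pax5 and Cpa3 were called with BM highest, Kit with LI highest and 1 epithelial marker with lung highest. At Pax5, SI (14.9 and 11.3 CPM) overlapped BM (14.0 and 19.8 CPM). Cd3e, a T cell gene, had 11.1 and 13.5 CPM in SI and at most 8.61 elsewhere (adjusted p = 0.011). Tnfrsf17 of plasma cells had 18.9 and 26.2 CPM in SI and 21.6 in one pancreas library (0.014), and Epcam of epithelium 16.4 and 8.22 CPM in SI (0.014), so that SI overlapped other tissues at both. Cd3g, another T cell gene, was highest in pancreas, with 4.61 and 5.24 CPM against 1.02 and 1.10 in BM (adjusted p = 0.0064). The promoter sum of B cell markers was 6.79 and 8.52 CPM in SI and at most 4.18 elsewhere, and that of myeloid markers 15.4 and 16.5 CPM in SI and at most 11.0 elsewhere, in each case from a single gene (Cd79b and Cd68). Of the B cell markers, Ms4a1 and Cd79a had no OCR, and of the myeloid markers, Lyz2 and Csf1r had none. The part of such cells in the SI and pancreas values of Bach2, Maff and Prdm1 was not tested.

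Over the 10 libraries, the gene sums most like that of Bach2 among 3583 genes with 5 or more regions were Msn (Pearson r = 0.984), Zfp326 (0.978) and Snx20 (0.977). For Maf they were Gm33843 (0.936), Sik2 (0.934) and Frs2 (0.924), for Bach1 Hprt (0.955), Serbp1 (0.925) and Wdr1 (0.907), for Prdm1 Etv6 (0.920), Csnk1g3 (0.901) and St8sia4 (0.890) and for Bcl6 Cry1 (0.908), Rmi2 (0.874) and Gm19951 (0.838). The small Mafs were most like Slmap (0.956), Slc3a2 (0.927) and Kmt2a (0.921) for Mafk, A930015D03Rik (0.921), Ube4b (0.914) and Phb (0.909) for Mafg and Ndufa13 (0.946), Mxi1 (0.926) and Zc2hc1c (0.916) for Maff. These r values describe log2 CPM over libraries that share tissue and depth, and no pair of genes shared a region.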

How the data were processed

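ATAC-seq libraries of ILC2s from 5 tissues (2 per tissue, described as biological duplicates) were used, and groups were taken from the labels. Per the study's methods, the authors checked reads with FastQC 0.11.9, aligned them to mm10 with Bowtie2 2.2.9, kept uniquely mapped reads, converted the files with SAMtools 1.8, called peaks with MACS2 2.1.1, kept peaks found in both replicates, merged them over tissues with HOMER and counted reads with bedtools. Whether reads were shifted for the Tn5 cut is not given in the sources used here. The deposited table holds these whole-number raw counts per region, without normalization. Coordinates of regions are printed as in that table.

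The members and gene lists were chosen with earlier results of these data known. Regions were annotated with RefSeq on GRCm38.p6 in Python 3.11.15 (pandas 2.3.3, pysam 0.24.0). The 49981 regions with at least 1 count (58 had none) were fitted together in R 4.3.3 with edgeR 4.0.16 (TMM, quasi-likelihood, tissue as the only term), and p-values were Benjamini-Hochberg adjusted over all of them. Gene sums of 20264 genes were fitted likewise. SE is the log2 difference divided by the square root of F. Alternatives were DESeq2 1.42.0 as a test and for size factors, library size alone, a filter of 10 counts in 2 libraries, no filter, a replicate block, removal of loess trends in GC content and width (limma 3.58.1), other assignments to genes and leaving out each library. The tests were checked on simulated counts.

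Named regions were, for each gene, the promoter region with the most counts, the 3 regions with the smallest p of the F-test, and every TS OCR and commonly decreased OCR. A promoter region had its centre at most 1000 bp before or 100 bp after a start. Counts of 10282987 to 32797872 per library limit the precision of weak regions. Sequences are those of the RefSeq assembly. A few genes of the lists are not reported here.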

Additional observations from a re-analysis of the deposited data

How the results depend on the processing

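The count of regions differing among tissues was 52 in the reported fit, 54 with DESeq2 size factors, 54 with library size alone, 57 by DESeq2 and 57 after removal of trends in width and GC content, and 50 to 52 of the same regions were shared with each. Sums of 4 genes in place of 2 passed with library size alone (Mafk and Maff were added). That of Bach1 passed with DESeq2 size factors, by DESeq2 and after removal of trends, but not with library size alone or the replicate block. LI regions, 11 in the reported fit, were 6 after removal of trends in width and GC content, 6 with these and the replicate block, and 7 with predicted start sites included, with which lung regions went from 16 to 8, the members being 63 instead of 92. With these start sites, Maf had 2 regions instead of 22, Bach1 9 instead of 13 and Prdm1 7 instead of 12. TS OCRs went from 12 to 1 and commonly decreased OCRs from 20 to 11 when each contrast needed an adjusted p. This threshold and the choice of start sites were added after seeing the data.

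Leaving out 1 library at a time gave 43 to 60 regions differing among tissues, 9 to 43 for BM, 3 to 21 for LI, 1 to 19 for lung, 13 to 31 for pancreas, 25 to 34 for SI, 6 to 19 TS OCRs, 15 to 21 commonly decreased OCRs and 1 to 3 gene sums. The lowest counts came without BM replicate 1, LI replicate 2 and lung replicate 2 for these tissues, without pancreas replicate 2 for pancreas and without pancreas replicate 1 for TS OCRs. The SI difference at Mafk +3.6 kb, not called, turned to -0.0868 without SI replicate 2 (0.32 without SI replicate 1). Bach2 had 23 to 26 called regions of 30 under the other scalings, filters and test, the replicate block and the removal of trends, and without each library.

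The replicate numbers were not taken to pair the libraries. Deviations of equal numbers correlated at 0.111 (LI and lung), 0.152 (lung and SI) and 0.183 (LI and SI) among these 3 tissues and at -0.161 to 0.0963 in the other pairs of tissues over 45870 regions. With the replicate block, 53 regions differed, 52 of them the same, and of the 46 named regions 1 lost its call, that of BM at the Maff promoter (adjusted p = 0.050). The libraries of each tissue differed beyond counting noise, so that with 2 per tissue the spread between libraries was estimated from few samples. Regions near 1 CPM are limited by depth as well.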
